A study of Mus musculus with 12 samples.

Results

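The 100 genes described here carry RIKEN clone names ending in Rik and are the most strongly detected of their kind in RNA from mouse peritoneal macrophages. They were chosen from 2833 Rik entries in a table of 53465 genes, as the 100 with the highest mean over any of the 4 groups of libraries. All 100 passed the filter on low values and were tested. Peritoneal macrophages are phagocytes of the abdominal cavity, and here they came from C57BL/6 mice at postnatal week 10. The first group carried the genotype label Lyz2Cre-BHLHE40-Fl with lipopolysaccharide (LPS) treatment, the second the same label with control treatment, the third the label Lyz2Cre with LPS and the last Lyz2Cre with control treatment, with 3 libraries each. Both labels share Lyz2Cre, a Cre recombinase driven by the lysozyme 2 gene and therefore made in neutrophils as well as macrophages. The Fl part of the first label names the BHLHE40 gene as the Cre target, a transcription factor whose role in the inflammatory response of macrophages is the subject of the series. Libraries of the first label are called BHLHE40-Fl-labelled below. The sources used here give neither the dose of LPS nor its duration. The labels do not say whether the replicates are separate animals or cultures, so each p-value reflects library-to-library spread alone, which may be technical.

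Rik names were given to transcripts first seen as full-length mouse cDNA clones, before their products had been studied, so the names say nothing of function. Many such genes have since been renamed, and others turned out to be long noncoding RNAs, antisense transcripts or hosts of microRNAs. LPS, the glycolipid on the surface of Gram-negative bacteria, is sensed through TLR4 and sets off inflammatory genes and, through secreted type I interferon, antiviral genes. BHLHE40 is a basic helix-loop-helix protein that binds the E-box CACGTG and is known mainly as a repressor of transcription.

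The libraries held 20489417 to 29354869 reads each, and values are reads divided by a scaling factor per library, as deposited. The 6 genes used to check the LPS label (Il6, Tnf, Nos2, Cxcl10, Il1b and Ptgs2) were higher with LPS in both genotype labels. Bhlhe40 RNA was not lower in the libraries whose label names it: it had 7893 ± 239 in BHLHE40-Fl-labelled controls and 4976 ± 295 in Lyz2Cre controls, and 2232 ± 244 in BHLHE40-Fl-labelled against 2467 ± 226 in Lyz2Cre libraries with LPS (SD, n = 3 each). Whether these reads fall in the deleted part cannot be told from gene values, so directions between the genotype labels are given for the libraries as labelled. Of 8 macrophage markers, 7 were lower in BHLHE40-Fl-labelled than in Lyz2Cre libraries in both treatments and none was at 0. Their summed value was 60886 to 69288 in BHLHE40-Fl-labelled controls against 117670 to 129680 in Lyz2Cre controls, and 87322 to 91097 in BHLHE40-Fl-labelled against 160410 to 167810 in Lyz2Cre libraries with LPS. Of 10 mesothelial and stromal markers, all 10 were higher in both treatments, and 3 were at 0 in Lyz2Cre controls and 2 in Lyz2Cre libraries with LPS. Their summed value was 5561 to 7404 in BHLHE40-Fl-labelled controls against 1085 to 1174 in Lyz2Cre controls, and 5952 to 7508 in BHLHE40-Fl-labelled against 1798 to 2538 in Lyz2Cre libraries with LPS. The T cell markers (6 of 6) and the tested neutrophil markers (2 of 2) were lower in both treatments. Of 7 large peritoneal macrophage markers, 1 was higher and 3 lower in BHLHE40-Fl-labelled controls, and 2 were higher and 3 lower with LPS. Of 5 markers of small peritoneal macrophages and monocytes, 4 were lower in controls and 4 with LPS, and none was higher. In controls, Gata6, the 1 large peritoneal macrophage marker called higher there, had 333 ± 39.9 in BHLHE40-Fl-labelled against 24.7 ± 9.06 in Lyz2Cre libraries. The 3 called lower were Itgam (1179.3 ± 84.9 against 9695.5 ± 234), Prg4 (1.73 ± 0.808 against 43.7 ± 8.44) and Icam2 (71.5 ± 10.7 against 138.6 ± 38.0). Of the small peritoneal macrophage and monocyte markers, Ly6c2 had 0.5 ± 0.436 in BHLHE40-Fl-labelled against 1217 ± 164 in Lyz2Cre controls. The part of these cell types in the differences between the labels was not tested, and in bulk RNA fewer cells of a type and less RNA per cell cannot be told apart.

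The members' highest group means ran from 383 to 24273, with a median of 1017, while the median of all Rik entries was 0.5 and 1087 of them were at 0 in every library. Just inside the limit stood F830016B08Rik (387) and 1810026B05Rik (383), and just outside stood 1810022K09Rik (377) and 4930512J16Rik (374). The group with the highest mean was Lyz2Cre with LPS for 48 members, BHLHE40-Fl-labelled with LPS for 21, BHLHE40-Fl-labelled controls for 18 and Lyz2Cre controls for 13. For 57 members all 4 group means reached the limit of 383, and for 16 only 1 group did. Since level in the groups chose the members, a member that is high in only 1 group of a comparison had to differ there. An adjusted p is therefore printed only where both groups compared reach the limit, and all other differences are descriptions. Together the 100 genes took 0.426% ± 0.0132 of the reads in BHLHE40-Fl-labelled libraries with LPS, against 0.593% ± 0.00703 in their controls. In Lyz2Cre libraries they took 0.417% ± 0.00371 with LPS, against 0.477% ± 0.00643 in controls (SD, n = 3 each).

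By the GENCODE M21 annotation 81 members are protein coding, 16 are long noncoding RNAs and 3 are of another kind, namely 2 unconfirmed transcripts and 1 transcribed pseudogene. In RefSeq, 23 have a newer symbol. Several of these act in membranes and organelles: C9orf72 (3110043O21Rik) in autophagy and lysosomes, Vps35l (9030624J02Rik) in the retriever complex that recycles endosomal cargo, Rmc1 (3110002H16Rik) in late endosome maturation, and Chmp1b2 (2610002M06Rik, a RefSeq synonym) in the ESCRT machinery. Micos13 (2410015M20Rik) belongs to the complex that shapes mitochondrial cristae and Atp5mpl (2010107E04Rik) to the ATP synthase. Resf1 (2810474O19Rik) silences endogenous retroviruses in mouse embryonic stem cells, and Shfl (A230050P20Rik) is an interferon-induced antiviral protein known from human cells. Per kilobase of exon, the highest maximum group means were those of 4930430E12Rik, a noncoding RNA (3233 per kb), 9530068E07Rik (3199 per kb) and 5031439G07Rik (2527 per kb), and the median member had 266 per kb.

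With LPS, 88 of the 100 members were called in BHLHE40-Fl-labelled libraries (58 higher, 30 lower) and 82 in Lyz2Cre libraries (56 higher, 26 lower; limma, adjusted p below 0.05). Of all 20419 genes tested, 50.5% were called in BHLHE40-Fl-labelled (24.9% higher, 25.6% lower) and 48.9% in Lyz2Cre libraries (25% higher, 23.9% lower). Among the 7806 tested genes that reach the lowest member's level in some group the shares were 78.4% in BHLHE40-Fl-labelled and 76.7% in Lyz2Cre libraries, and of the 965 other Rik genes tested 337 were called in BHLHE40-Fl-labelled and 299 in Lyz2Cre libraries. The rule used these levels, so nothing is read from the counts. The median log2 change of the members was 0.41 in BHLHE40-Fl-labelled and 0.47 in Lyz2Cre libraries, beside -0.05 in BHLHE40-Fl-labelled and 0 in Lyz2Cre libraries over all genes tested. Over the genes that reach the lowest member's level it was 0.16 in BHLHE40-Fl-labelled and 0.15 in Lyz2Cre libraries. Of these, 3644 were called higher and 2473 lower in BHLHE40-Fl-labelled libraries, and 3575 higher and 2411 lower in Lyz2Cre libraries. Over the other Rik genes tested the median was -0.40 in BHLHE40-Fl-labelled and -0.28 in Lyz2Cre libraries. In both labels 51 members were higher and 23 lower, beside 19.1% higher and 17.6% lower of all genes tested, and the LPS comparisons of the labels share no library. With a change of at least 1 on the log2 scale required as well, 38 members were called in BHLHE40-Fl-labelled and 42 in Lyz2Cre libraries, beside 27.5% of all genes tested in BHLHE40-Fl-labelled and 26.2% in Lyz2Cre libraries. The split depends on the scaling: with all libraries brought to equal totals, the members called were 30 higher and 50 lower in BHLHE40-Fl-labelled and 33 higher and 52 lower in Lyz2Cre libraries. That scaling moved the median change of all genes to -0.56 in BHLHE40-Fl-labelled and -0.57 in Lyz2Cre libraries. Of the members called before, 18 in BHLHE40-Fl-labelled and 17 in Lyz2Cre libraries changed sign under it, and 20 in BHLHE40-Fl-labelled and 15 in Lyz2Cre libraries lost their call. It turned the call of 8 members in each label, with 1110004F10Rik, 2510039O18Rik and 4933434E20Rik among the 8 in both, and none of the members whose library values are given below.

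**Figure D1:**
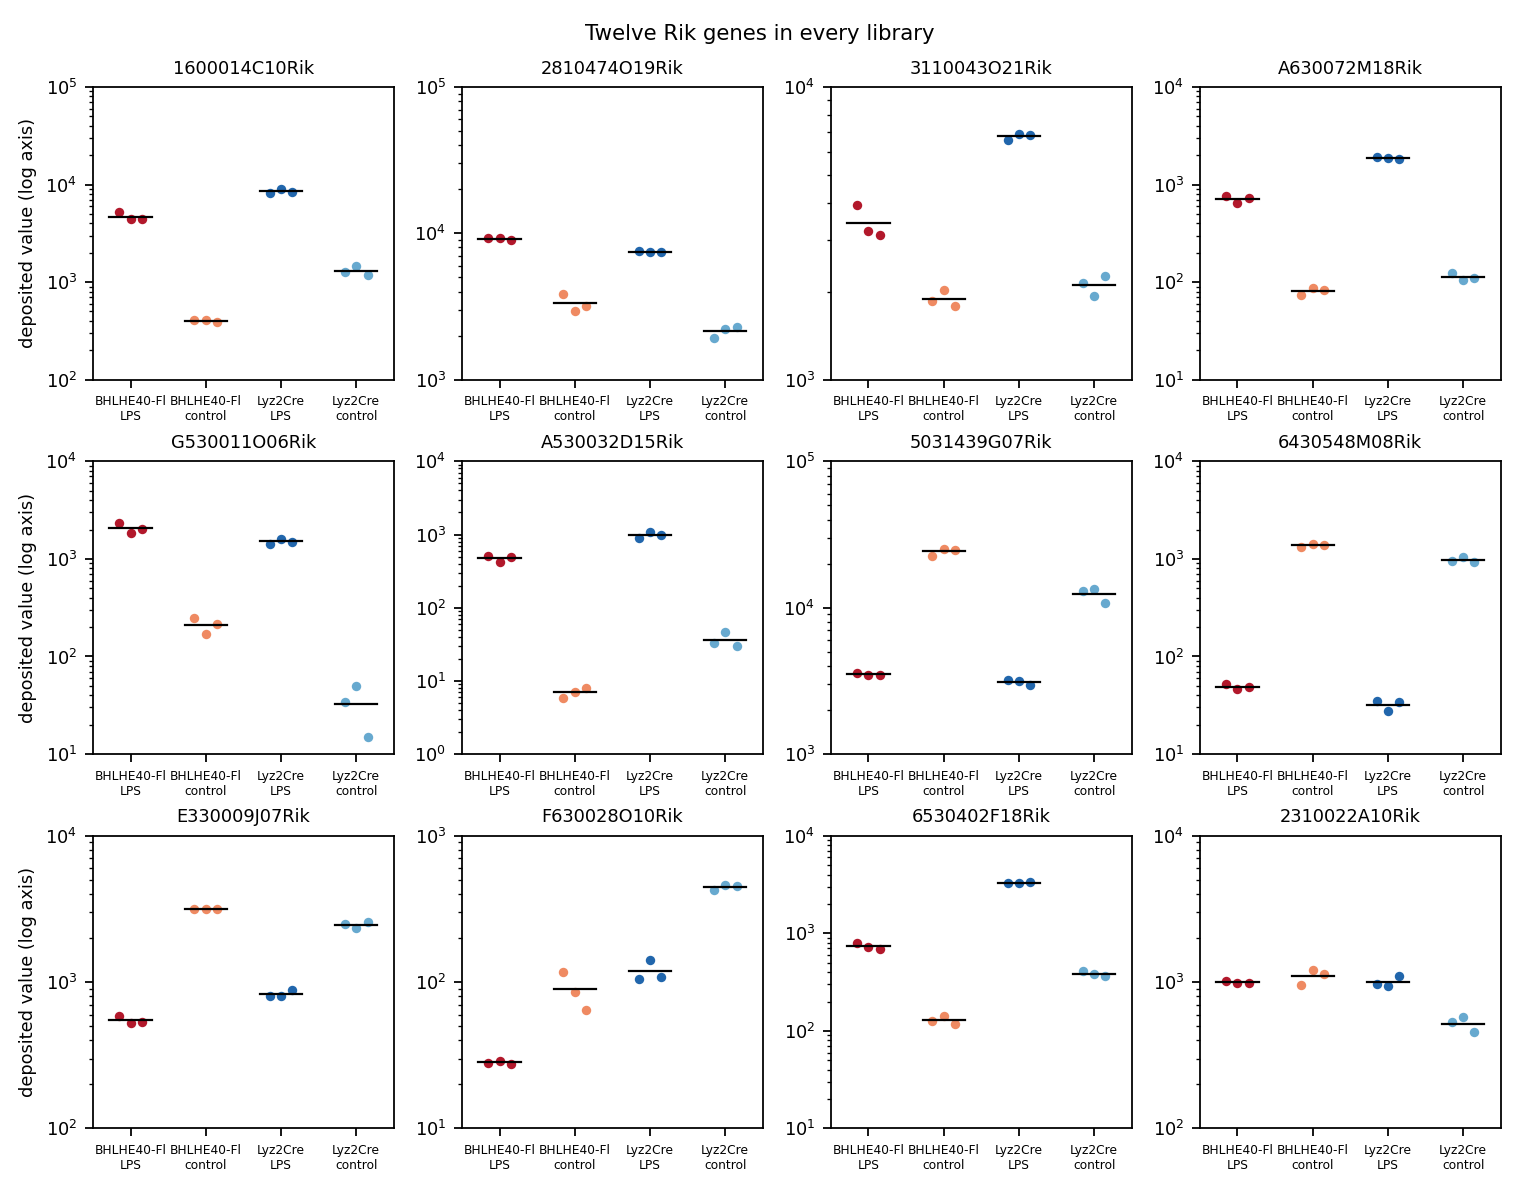
Deposited values (reads divided by a factor per library; log axis) of 12 Rik genes in each of the 12 libraries; points are libraries, black lines are group means, and BHLHE40-Fl stands for the label Lyz2Cre-BHLHE40-Fl. LPS libraries of 1600014C10Rik lie above all controls, those of 6430548M08Rik lie below all controls, and 6530402F18Rik and F630028O10Rik are lower in BHLHE40-Fl-labelled than in Lyz2Cre libraries of the same treatment.

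Among members expressed well in every group, 1600014C10Rik had the steepest rise with LPS. Its values were 5248, 4429.7 and 4407 in BHLHE40-Fl-labelled libraries with LPS, against 409, 409 and 387 in their controls. In Lyz2Cre libraries they were 8249.6, 9012 and 8441 with LPS, against 1272, 1459 and 1168 in controls. No LPS library overlapped a control, and the log2 change was 3.54 ± 0.09 (SE) in BHLHE40-Fl-labelled libraries (limma adjusted p = 3.56e-16) and 2.72 ± 0.09 in Lyz2Cre libraries (limma adjusted p = 1.88e-14). The protein-coding gene lies at chr7:38183217-38197568, plus strand (mm10), and the annotations used here give it no other name.

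Resf1 (2810474O19Rik, chr6:149309414-149335663, plus strand) also rose with LPS in both labels. It had 9333, 9327 and 8951 in BHLHE40-Fl-labelled libraries with LPS, against 3823, 2943 and 3207 in their controls, and 7566, 7468 and 7434 in Lyz2Cre libraries with LPS, against 1919.9, 2206 and 2287 in controls. All LPS libraries stood above all controls; the log2 change was 1.48 ± 0.09 in BHLHE40-Fl-labelled (limma adjusted p = 6.67e-11) and 1.81 ± 0.09 in Lyz2Cre libraries (limma adjusted p = 4.73e-12). 4932438A13Rik, whose RefSeq synonyms are Kiaa1109 and Tweek, encodes a very long protein of the bridge-like lipid transfer family. In BHLHE40-Fl-labelled libraries it had 7659.8, 8534 and 8452 with LPS against 3079.6, 2749.8 and 2894 in controls, 2.83-fold higher (limma adjusted p = 2.39e-11). In Lyz2Cre libraries it had 7587, 7374 and 8392 with LPS against 2312, 2843 and 2586 in controls, 3.02-fold higher (limma adjusted p = 1.21e-11). Its genotype labels were not called different in either treatment, with 0.18 ± 0.08 in controls and 0.08 ± 0.08 with LPS, but were under equal library totals, with 0.35 in controls and 0.36 with LPS.

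9530068E07Rik (Kct2, named after a keratinocyte membrane protein) and Rab5if (1110008F13Rik, a Rab5-interacting factor) were higher with LPS in both labels. Kct2 had 7408, 7346 and 7590.1 with LPS against 3826, 3497 and 3661 in controls of the BHLHE40-Fl label, and 10235, 10835 and 10562 with LPS against 5128, 5391 and 5095 in controls of Lyz2Cre. Its log2 changes were 1.03 ± 0.06 (limma adjusted p = 6.89e-11) in BHLHE40-Fl-labelled and 1.02 ± 0.06 (limma adjusted p = 9.03e-11) in Lyz2Cre libraries, and the difference between them was 0.01 ± 0.08. Under quantile normalization the change in Lyz2Cre libraries was 0.10 and was not called, and the difference between the labels' changes was 0.24 and was called (limma adjusted p = 0.0456). Rab5if had 3414, 2987 and 2903 with LPS against 1579, 1538 and 1475 in controls of the BHLHE40-Fl label, and 4402, 4691 and 4577 with LPS against 2278, 2237 and 2396 in controls of Lyz2Cre, with log2 changes of 1.02 ± 0.07 (limma adjusted p = 7.28e-10) in BHLHE40-Fl-labelled and 0.98 ± 0.07 (limma adjusted p = 1.25e-09) in Lyz2Cre libraries. Both genes were lower in every BHLHE40-Fl-labelled library than in any Lyz2Cre library of the same treatment, as given further on.

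A second set of members reached the limit only with LPS, so their changes are described without a p. Shfl (A230050P20Rik) averaged 1125 ± 75.6 in BHLHE40-Fl-labelled libraries with LPS and 138 ± 8.72 in their controls, and 1342 ± 111 with LPS against 238 ± 30.4 in controls in Lyz2Cre libraries. F830016B08Rik, which RefSeq also lists as Ifgga4 of the interferon-gamma-inducible GTPases, had 306, 411 and 446 in BHLHE40-Fl-labelled libraries with LPS, against 4.4, 0 and 0 in their controls. In Lyz2Cre libraries it had 164, 148 and 132 with LPS, against 6.9, 7.3 and 0 in controls. The BHLHE40-Fl-labelled controls held 6 reads of it in all, and its mean with LPS was 264-fold theirs (95% exact Poisson interval 121 to 720, counting error only). 1110038F14Rik averaged 1753 ± 36.1 with LPS and 208 ± 8.9 in controls of the BHLHE40-Fl label, and 2109.7 ± 108 with LPS against 258 ± 23.2 in controls of Lyz2Cre, log2 changes of 3.07 ± 0.08 in BHLHE40-Fl-labelled and 3.03 ± 0.08 in Lyz2Cre libraries.

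Among the members with the largest rises, 3 overlap on chromosome 1, and 1 more lies in the same stretch. C130026I21Rik (chr1:84992690-85270566, minus strand) spans A530032D15Rik (chr1:85083069-85109853, minus strand) and the noncoding A530040E14Rik (chr1:85105946-85114035, plus strand), which runs the other way and overlaps A530032D15Rik by 3908 bases. A630001G21Rik begins 446517 bases beyond C130026I21Rik. The stretch also holds Sp100, Sp110 and Sp140, nuclear body proteins induced by interferon, and near-identical copies, so the assignment of reads among these genes is uncertain. A530032D15Rik had 509, 420.1 and 499.7 in BHLHE40-Fl-labelled libraries with LPS, against 5.8, 7.1 and 8 in their controls, and 907, 1066 and 983 in Lyz2Cre libraries with LPS, against 33.1, 47 and 30.1 in controls. C130026I21Rik had 723, 662 and 712 with LPS against 29.8, 33.9 and 53.6 in controls of the BHLHE40-Fl label, and 1219, 1350.4 and 1109 with LPS against 87.8, 112 and 66.2 in controls of Lyz2Cre. No LPS library of either gene overlapped a control.

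A530040E14Rik had 463, 311 and 309 in BHLHE40-Fl-labelled libraries with LPS, against 0.7, 0.8 and 0 in their controls. In Lyz2Cre libraries it had 661, 676 and 641 with LPS, against 6.2, 16.2 and 5 in controls. The BHLHE40-Fl-labelled controls held only 2 reads of it, so its 723-fold ratio there has a 95% exact Poisson interval of 200.1 to 5967. A630001G21Rik rose less, with 1039 ± 81.4 in BHLHE40-Fl-labelled libraries with LPS and 407 ± 40.5 in their controls, and 1564 ± 93 with LPS against 376 ± 17.6 in controls in Lyz2Cre libraries. Of the 3 neighbours chosen after their values were seen, Sp110 had a log2 change of 4.46 ± 0.14 in BHLHE40-Fl-labelled and 3.42 ± 0.14 in Lyz2Cre libraries. The changes of Sp100 were 3.85 ± 0.17 in BHLHE40-Fl-labelled and 2.53 ± 0.17 in Lyz2Cre libraries, and those of Sp140 3.67 ± 0.10 in BHLHE40-Fl-labelled and 3.23 ± 0.10 in Lyz2Cre libraries.

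**Figure D2:**
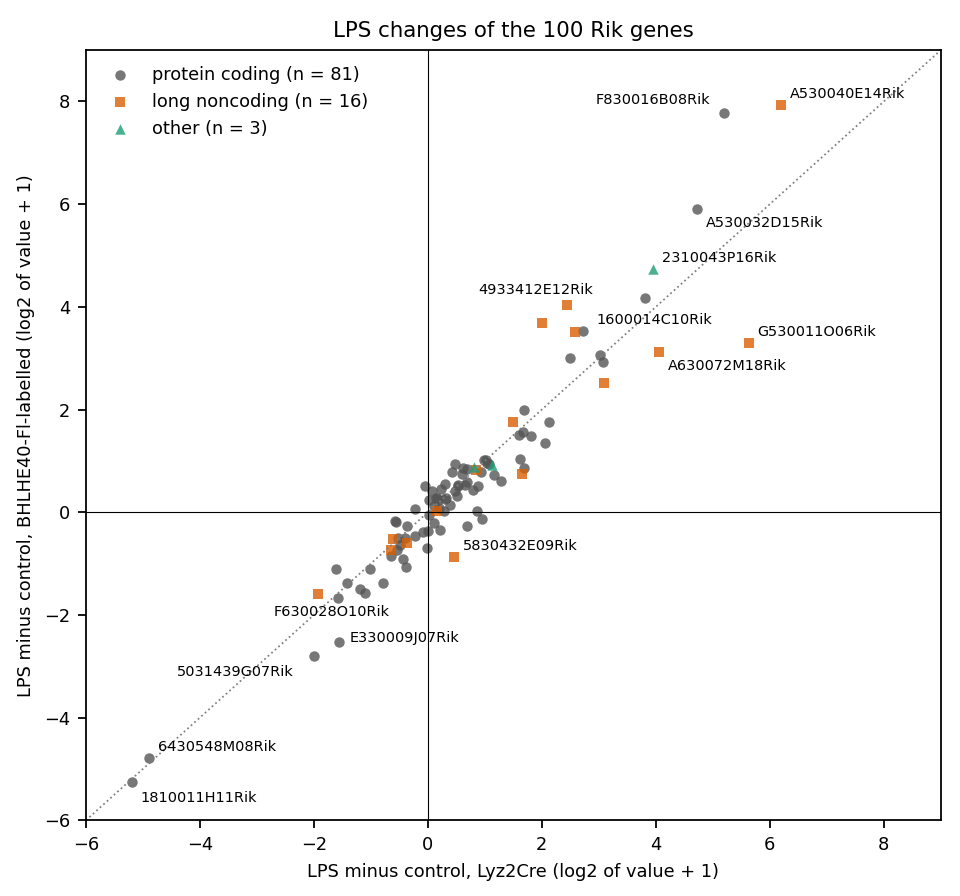
LPS change of each of the 100 Rik genes in BHLHE40-Fl-labelled libraries (vertical axis) against the change in Lyz2Cre libraries (horizontal axis), both as LPS minus control on the log2(value + 1) scale; marker shape gives the annotated class and the dotted line marks equal changes. Of the members, 51 were called higher in both labels and 23 lower in both, and 5830432E09Rik lies below 0 in BHLHE40-Fl-labelled and above 0 in Lyz2Cre libraries.

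The member with the highest value, 5031439G07Rik (chr15:84943936-84988551, minus strand), was also among those that fell most with LPS. It had 3595, 3467 and 3442 in BHLHE40-Fl-labelled libraries with LPS, against 22624, 25320.5 and 24874 in their controls, and 3211, 3152 and 2974 in Lyz2Cre libraries with LPS, against 13029, 13466 and 10781 in controls. The groups did not overlap, and the log2 change was -2.79 ± 0.08 in BHLHE40-Fl-labelled (limma adjusted p = 2.8e-15) and -1.99 ± 0.08 in Lyz2Cre libraries (limma adjusted p = 4.42e-13). RefSeq gives it only the cDNA name mKIAA0930 besides.

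Dennd11 (E330009J07Rik), a DENN domain protein, a class known to act on Rab GTPases, fell with LPS in both labels. It had 589.8, 523 and 537 in BHLHE40-Fl-labelled libraries with LPS, against 3151, 3182 and 3180.5 in their controls, and 806, 806 and 883 in Lyz2Cre libraries with LPS, against 2490.4, 2334 and 2563 in controls. The log2 changes were -2.53 ± 0.07 (limma adjusted p = 2.43e-15) in BHLHE40-Fl-labelled and -1.57 ± 0.07 (limma adjusted p = 2.59e-12) in Lyz2Cre libraries, again with no overlap. A pair of coding genes without another name in RefSeq fell as well. 1700017B05Rik had 977, 1152 and 1248 with LPS against 3322, 3786 and 3538 in controls of the BHLHE40-Fl label and 932, 994 and 921 with LPS against 2958, 3080.2 and 2464 in controls of Lyz2Cre. The log2 change was -1.66 ± 0.10 (limma adjusted p = 6.11e-11) in BHLHE40-Fl-labelled and -1.57 ± 0.10 (limma adjusted p = 1.58e-10) in Lyz2Cre libraries. 2510009E07Rik had 1411, 1499.6 and 1455 with LPS against 4655, 4094 and 4204 in controls of the BHLHE40-Fl label and 1638, 1686 and 1552 with LPS against 3437, 3392 and 3696 in controls of Lyz2Cre. The log2 change was -1.57 ± 0.07 (limma adjusted p = 1.05e-12) in BHLHE40-Fl-labelled and -1.11 ± 0.07 (limma adjusted p = 1.68e-10) in Lyz2Cre libraries.

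The steepest losses were those of 6430548M08Rik and Tmem273 (1810011H11Rik, a predicted membrane protein), which reached the limit only in controls. 6430548M08Rik had 52.7, 46 and 48.8 in BHLHE40-Fl-labelled libraries with LPS, against 1334, 1408 and 1375 in their controls, and 34.7, 27.6 and 34.2 in Lyz2Cre libraries with LPS, against 955, 1034 and 934 in controls. Its mean was 27.9-fold lower with LPS in BHLHE40-Fl-labelled and 30.3-fold lower in Lyz2Cre libraries. Tmem273 had 8.2, 7.7 and 15 with LPS against 388, 442 and 409 in controls of the BHLHE40-Fl label, and 2.8, 5.5 and 4.7 with LPS against 229, 150.0 and 199 in controls of Lyz2Cre. No LPS library came near a control for either gene. Among members lowered at least 2-fold in both labels, 2610301B20Rik had 99.5, 124 and 92.7 with LPS against 248, 215 and 214 in controls of the BHLHE40-Fl label, and 122, 131 and 121 with LPS against 423, 297 and 451 in controls of Lyz2Cre. The cilium gene Cfap410 (1810043G02Rik) averaged 113 ± 7.58 with LPS and 294 ± 5.36 in controls of the BHLHE40-Fl label, and 172 ± 20.8 with LPS against 461 ± 37.4 in controls of Lyz2Cre.

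Both 6430548M08Rik and Tmem273 hold the E-box CACGTG that BHLHE40 binds in the 300 bases around their start site, which is why their promoters are shown. The windows run from 250 bases before to 50 bases after the RefSeq start (GRCm38.p6), with CACGTG in capitals; the motif reads the same on both strands. In 6430548M08Rik (chr8:120113902-120114201, plus strand) it lies 207 and 60 bases before the start, and in Tmem273 (chr14:32785713-32786012, plus strand) it begins 3 bases after the start.
6430548M08Rik: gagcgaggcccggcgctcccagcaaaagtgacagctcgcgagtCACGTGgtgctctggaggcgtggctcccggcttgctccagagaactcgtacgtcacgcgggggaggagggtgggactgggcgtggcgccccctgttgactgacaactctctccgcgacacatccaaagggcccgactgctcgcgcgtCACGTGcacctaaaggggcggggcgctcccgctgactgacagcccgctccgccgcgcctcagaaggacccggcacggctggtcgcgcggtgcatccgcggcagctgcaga
1810011H11Rik: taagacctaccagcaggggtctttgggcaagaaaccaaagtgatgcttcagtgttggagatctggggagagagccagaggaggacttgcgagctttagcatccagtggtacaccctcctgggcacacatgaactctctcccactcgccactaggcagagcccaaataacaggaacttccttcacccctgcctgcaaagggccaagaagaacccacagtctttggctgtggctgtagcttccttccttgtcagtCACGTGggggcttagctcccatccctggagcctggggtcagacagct
Of the 79 members with a promoter in the RefSeq table, 9 (11.4%) hold CACGTG, beside 8.09% of all 27025 promoters, so the motif is not rare and its presence says nothing of binding here. The others are 1110059E24Rik, 2410131K14Rik (Spring1), 2610002M06Rik, 4933434E20Rik, 9330175E14Rik, A930007I19Rik and C330007P06Rik. The interferon-stimulated response element (GAAA, any 2 bases, GAAA) was found on either strand in 3 members (3.8%) and in 3.99% of all promoters. The gamma-activated site (TTC, any 3 bases, GAA; both strands) was found in 9 members (11.4%) and in 9.55% of all promoters. The kappa B site (GGGA, any base, TTTCC), sought on both strands, was in none of the 79 windows and in 0.466% of all promoters.

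Of the 3 with the interferon element, I830077J02Rik alone was higher with LPS. It is a coding gene on chromosome 3 that averaged 779 ± 52.2 in BHLHE40-Fl-labelled libraries with LPS and 194 ± 5.55 in their controls, and 1036 ± 135 with LPS against 320.0 ± 27.3 in controls in Lyz2Cre libraries. Its window (chr3:105932615-105932914, minus strand) is shown with the element, 112 bases before the start, in capitals.
I830077J02Rik: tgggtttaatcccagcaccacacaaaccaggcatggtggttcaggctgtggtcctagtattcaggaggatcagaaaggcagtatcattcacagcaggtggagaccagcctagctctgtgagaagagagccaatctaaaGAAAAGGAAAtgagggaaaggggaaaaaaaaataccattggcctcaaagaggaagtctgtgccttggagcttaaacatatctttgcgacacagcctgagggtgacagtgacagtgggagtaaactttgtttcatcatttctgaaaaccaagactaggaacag
The other holders, 0610012G03Rik and F630028O10Rik, were both lower with LPS in both labels.

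F630028O10Rik (chrX:96239926-96243636, plus strand) is a noncoding transcript of the X chromosome that contains miR-223, a microRNA of myeloid cells that is most abundant in neutrophils. It had 28.1, 29.1 and 27.6 in BHLHE40-Fl-labelled libraries with LPS, against 117, 86.1 and 64.5 in their controls, and 106, 141 and 109 in Lyz2Cre libraries with LPS, against 428, 464 and 454 in controls. In each label every LPS library was below every control. In each treatment every BHLHE40-Fl-labelled library was below every Lyz2Cre library, and the host averaged 5.03-fold lower in BHLHE40-Fl-labelled than in Lyz2Cre controls and 4.19-fold lower with LPS. Neutrophil markers moved between the labels in the same direction: their summed value over 6 genes was 42.8 to 74.9 in BHLHE40-Fl-labelled controls against 387 to 723 in Lyz2Cre controls, and 137 to 229 in BHLHE40-Fl-labelled against 960.1 to 1205 in Lyz2Cre libraries with LPS, with 2 to 4 of the 6 at 0 in all libraries of a group, Ly6g, which defines neutrophils, at 0 in all 12, and nearly all of the sum from S100a8. With LPS this sum was higher in both labels while the host was lower, and the part of neutrophils in the host's level was not tested.

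Aopep and 5031439G07Rik also contain microRNAs, and mature sequences are shown because they lie within these transcripts; the seed, bases 2 to 8, is in capitals, and all are from RefSeq (GRCm38.p6). Mature microRNAs were not measured by these libraries.
mmu-miR-223-5p: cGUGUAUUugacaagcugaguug
mmu-miR-223-3p: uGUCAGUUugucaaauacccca
mmu-miR-23b-5p: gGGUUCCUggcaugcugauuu
mmu-miR-27b-3p: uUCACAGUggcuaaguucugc
mmu-miR-24-3p: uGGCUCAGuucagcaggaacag
mmu-miR-1249-3p: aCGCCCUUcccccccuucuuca
The first pair lies in F630028O10Rik, with miR-223-3p at chrX:96242884-96242905, plus strand. The next 3 lie in Aopep (2010111I01Rik), with miR-27b-3p at chr13:63300760-63300780, plus strand, and the last in 5031439G07Rik, at chr15:84951545-84951566, minus strand. No 2 of these 6 share a seed.

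Aopep, an aminopeptidase, was one of 2 members called in opposite directions by LPS. It had 2298, 1910.5 and 2141 in BHLHE40-Fl-labelled libraries with LPS, against 2429, 2777 and 2409.5 in their controls, a log2 change of -0.26 ± 0.08 (limma adjusted p = 0.00845). In Lyz2Cre libraries it had 3616, 3615 and 3469.9 with LPS, against 2320.2, 2164 and 2139.7 in controls, a change of 0.69 ± 0.08 (limma adjusted p = 5.45e-07). Neither pair of groups overlapped, and the difference between the changes was -0.96 ± 0.11 (interaction, limma adjusted p = 4.92e-06). The fall in BHLHE40-Fl-labelled libraries was not called when replicate 2 of either of their groups was left out, and under quantile normalization the rise in Lyz2Cre libraries was not called. The other was the noncoding 5830432E09Rik, which had 101.8, 82.8 and 85.2 in BHLHE40-Fl-labelled libraries with LPS, against 169, 164 and 159 in their controls, and 540.5, 521 and 515 in Lyz2Cre libraries with LPS, against 403, 408 and 338 in controls. It lies wholly within Ptpre, a receptor-type tyrosine phosphatase gene, on the other strand. Ptpre had 2724 ± 157 with LPS against 4484 ± 288 in controls of the BHLHE40-Fl label and 6296 ± 111 with LPS against 7635 ± 428 in controls of Lyz2Cre.

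The 6 members called with LPS in neither label were C330007P06Rik, 9930021J03Rik, Atp5mpl, Micos13, 1110059G10Rik and 1810026B05Rik. Of the mitochondrial pair, Atp5mpl averaged 966 ± 202 with LPS and 880.2 ± 90.1 in controls of the BHLHE40-Fl label, and 788 ± 48.4 with LPS against 739.5 ± 124 in controls of Lyz2Cre, and Micos13 changed by -0.20 ± 0.16 in BHLHE40-Fl-labelled and 0.12 ± 0.16 in Lyz2Cre libraries on the log2 scale. 1810026B05Rik is Chaserr, a long noncoding RNA that represses its neighbour Chd2 in mouse, and it was the member nearest the limit. It had 352, 402 and 396 with LPS against 376, 399 and 349 in controls of the BHLHE40-Fl label, and 342, 314 and 378 with LPS against 310.2, 268 and 354 in controls of Lyz2Cre, with overlapping groups in both. Chd2 had log2 changes of 0.41 ± 0.08 in BHLHE40-Fl-labelled and 0.46 ± 0.08 in Lyz2Cre libraries. Cyrano (Oip5os1, 1700020I14Rik), a conserved long noncoding RNA known for its miR-7 site, averaged 2044 ± 150.2 with LPS and 2942 ± 19.9 in controls of the BHLHE40-Fl label, and 1734 ± 22.7 with LPS against 2638 ± 163 in controls of Lyz2Cre. Its changes were -0.53 ± 0.07 (limma adjusted p = 3.46e-06) in BHLHE40-Fl-labelled and -0.60 ± 0.07 (limma adjusted p = 6.66e-07) in Lyz2Cre libraries.

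The other members are named here by the direction of their LPS call. The 51 members higher in both labels changed by 0.26 to 7.94 in BHLHE40-Fl-labelled and by 0.30 to 6.19 in Lyz2Cre libraries. Khdc4 (2810403A07Rik), an RNA-binding protein of splicing, averaged 2678 ± 67.1 with LPS and 1397 ± 61.9 in controls of the BHLHE40-Fl label, and 3325 ± 26.9 with LPS and 1575 ± 55.7 in controls of Lyz2Cre. Its changes were 0.94 ± 0.06 (limma adjusted p = 3.98e-10) in BHLHE40-Fl-labelled and 1.08 ± 0.06 (limma adjusted p = 6.5e-11) in Lyz2Cre libraries. A larger change was that of 4930453N24Rik, 1.75 ± 0.08 (limma adjusted p = 2.91e-12) in BHLHE40-Fl-labelled and 2.12 ± 0.08 (limma adjusted p = 2.87e-13) in Lyz2Cre libraries. Garre1 (4931406P16Rik), a Rac effector, rose by 0.79 ± 0.08 (limma adjusted p = 7.9e-08) in BHLHE40-Fl-labelled and 0.93 ± 0.08 (limma adjusted p = 8.81e-09) in Lyz2Cre libraries. P2ry10b (A630033H20Rik), a receptor of the P2Y family, rose by 0.43 ± 0.08 (limma adjusted p = 0.000183) in BHLHE40-Fl-labelled and 0.80 ± 0.08 (limma adjusted p = 1.5e-07) in Lyz2Cre libraries. Its rise in BHLHE40-Fl-labelled libraries was not called under quantile normalization. Chmp1b2 rose by 0.96 ± 0.09 in BHLHE40-Fl-labelled and 1.04 ± 0.09 in Lyz2Cre libraries.

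The noncoding 4930430E12Rik, the highest member per kilobase, averaged 3422 ± 392 with LPS and 1013 ± 81.9 in controls of the BHLHE40-Fl label, and 3669.6 ± 191 with LPS and 1303 ± 52.6 in controls of Lyz2Cre. 3110001I22Rik averaged 561 ± 41.2 with LPS and 73.2 ± 13 in controls of the BHLHE40-Fl label, and 734 ± 39.4 with LPS and 86.9 ± 14.5 in controls of Lyz2Cre, and it too reached the limit with LPS alone. RefSeq lists it under Bfar, which is also a gene of its own in the deposited values. Bfar changed with LPS by 2.32 ± 0.06 in BHLHE40-Fl-labelled and 2.52 ± 0.06 in Lyz2Cre libraries. How reads were divided between these entries was not tested. The rest of this class were 2210016F16Rik, 2310011J03Rik, 1810037I17Rik, 0610030E20Rik, Czib (0610037L13Rik, named for its zinc-binding motif), 2410004B18Rik, 3830406C13Rik, 4930523C07Rik, 9130401M01Rik, 5430427O19Rik, 1110059E24Rik, the long noncoding 4632415L05Rik and the pseudogene C920009B18Rik. It also held 1110004F10Rik, 2510039O18Rik and 4933434E20Rik, which were called lower in both labels under equal library totals, and 2610001J05Rik, 4930402H24Rik, 4930503L19Rik (Las2) and 8030462N17Rik (Ark2N), called lower under that scaling in Lyz2Cre libraries.

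The 23 members lower in both labels changed by -5.25 to -0.28 in BHLHE40-Fl-labelled and by -5.20 to -0.36 in Lyz2Cre libraries. Stmp1 (1810058I24Rik), which encodes a small mitochondrial membrane protein although GENCODE M21 lists it as noncoding, averaged 477 ± 35.1 with LPS and 791 ± 28.8 in controls of the BHLHE40-Fl label, and 452 ± 10.2 with LPS and 715 ± 103 in controls of Lyz2Cre. Its changes were -0.73 ± 0.10 (limma adjusted p = 5.89e-06) in BHLHE40-Fl-labelled and -0.65 ± 0.10 (limma adjusted p = 2.25e-05) in Lyz2Cre libraries. Dele1 (0610009O20Rik), a relay of mitochondrial stress known from human cells, changed by -0.28 ± 0.09 (limma adjusted p = 0.0158) in BHLHE40-Fl-labelled and -0.36 ± 0.09 (limma adjusted p = 0.00264) in Lyz2Cre libraries. Its call in BHLHE40-Fl-labelled libraries was lost without replicate 1 of those with LPS, and without replicate 2 or 3 of their controls. Custos (2210016L21Rik) averaged 269 ± 11.7 with LPS and 580.1 ± 10.3 in controls of the BHLHE40-Fl label, and 273 ± 12.9 with LPS and 554 ± 23.5 in controls of Lyz2Cre. The cilium gene Cplane1 (2410089E03Rik) averaged 361 ± 18.6 with LPS and 679 ± 32.4 in controls of the BHLHE40-Fl label, and 333 ± 15 with LPS and 452 ± 48.8 in controls of Lyz2Cre. Spring1 (2410131K14Rik), which is needed for processing of the sterol-sensing factor SREBP, changed by -0.64 ± 0.11 in BHLHE40-Fl-labelled and -0.49 ± 0.11 in Lyz2Cre libraries. The others were 2900097C17Rik, D230025D16Rik, Dipk2a (1190002N15Rik), 4833420G17Rik, 2010315B03Rik and 0610009B22Rik.

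Some members were called with LPS in one label only. The 7 called higher in BHLHE40-Fl-labelled libraries alone changed by at most 0.51 there, and they were 1810013L24Rik, 4833439L19Rik (P33monox), 0610010F05Rik, 2310035C23Rik (Relch, a protein of recycling endosomes), 6030458C11Rik, 1700123O20Rik and E130309D02Rik, of which the first 5 were called lower under equal library totals. The 5 called lower there alone were B230219D22Rik, 1110008P14Rik, 5730455P16Rik, Vps35l and D430042O09Rik. In Lyz2Cre libraries alone 1600012H06Rik, 9130023H24Rik (GLI4 in RefSeq) and 2310022A10Rik were called higher, 1600012H06Rik with the opposite call under equal totals, and 2610507B11Rik, 2810004N23Rik and 1810030O07Rik lower. A call in one label is not a difference between them: of these, the LPS change itself differed (interaction called) for 1110008P14Rik (-0.56 ± 0.15; limma adjusted p = 0.013), B230219D22Rik (-0.37 ± 0.10; limma adjusted p = 0.0162) and Vps35l (-0.30 ± 0.09; limma adjusted p = 0.0343), for 9130023H24Rik (-0.84 ± 0.17, with means under the limit), and for D430042O09Rik, E130309D02Rik and 2310022A10Rik, given below. The interactions of 1110008P14Rik and B230219D22Rik were not called under equal library totals. That of Vps35l was not called without the filter on low values, under equal totals, with the replicate block, with edgeR and in 7 of the 12 fits that left out 1 library.

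Of the 16 long noncoding members, 10 were called higher and 5 lower with LPS in BHLHE40-Fl-labelled libraries, and 11 higher and 4 lower in Lyz2Cre libraries, with median log2 changes of 1.29 in BHLHE40-Fl-labelled and 1.57 in Lyz2Cre libraries. Of the 62 long noncoding genes tested that reach the lowest member's level, 61.3% were called higher and 30.6% lower in BHLHE40-Fl-labelled libraries (median 0.71), and 58.1% higher and 29% lower in Lyz2Cre libraries (median 0.80). Of the 81 coding members, 45 were called higher and 25 lower in BHLHE40-Fl-labelled libraries, and 42 higher and 22 lower in Lyz2Cre libraries, with medians of 0.28 in BHLHE40-Fl-labelled and 0.31 in Lyz2Cre libraries. Of the 7695 coding genes at that level, 46.4% were called higher and 31.8% lower in BHLHE40-Fl-labelled (median 0.15), and 45.5% higher and 31.1% lower in Lyz2Cre libraries (median 0.15). The highest group mean, which the rule used, was one with LPS for 12 of the 16 long noncoding and 54 of the 81 coding members, so nothing is read from these counts. Overlap with other genes is common: 47 members overlap a gene on the other strand, and 29 start within 1000 bases of one there. The sources used here do not give the strand setting of the counting, so reads of such a pair cannot be told apart. Of the 24 tested pairs that start within 1000 bases of each other on opposite strands, both genes were called in 11 with LPS in BHLHE40-Fl-labelled libraries, 8 of them in the same direction. In Lyz2Cre libraries both were called in 10, again 8 in the same direction. Such pairs were not counted over all genes, so these counts of pairs have no share beside them and nothing is read from them.

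One such pair is 9330175E14Rik and Nlrc5, the activator of MHC class I genes, whose 5' ends overlap by 748 bases on chromosome 8. The noncoding gene had 325, 288 and 396 in BHLHE40-Fl-labelled libraries with LPS, against 34.2, 26.8 and 16.7 in their controls, and 450.2, 363 and 471 in Lyz2Cre libraries with LPS, against 95.5, 129 and 94.6 in controls. Nlrc5 had 25387 ± 358 with LPS against 518 ± 36.1 in controls of the BHLHE40-Fl label, and 28162 ± 301 with LPS against 2952 ± 661 in controls of Lyz2Cre. Both genes were higher in every LPS library than in any control of the label, and both were lower in BHLHE40-Fl-labelled than in Lyz2Cre controls. The window around the start of 9330175E14Rik (chr8:94435054-94435353, minus strand) is shown because it lies within Nlrc5, just past the start of that gene, with CACGTG in capitals 59 bases before the start.
9330175E14Rik: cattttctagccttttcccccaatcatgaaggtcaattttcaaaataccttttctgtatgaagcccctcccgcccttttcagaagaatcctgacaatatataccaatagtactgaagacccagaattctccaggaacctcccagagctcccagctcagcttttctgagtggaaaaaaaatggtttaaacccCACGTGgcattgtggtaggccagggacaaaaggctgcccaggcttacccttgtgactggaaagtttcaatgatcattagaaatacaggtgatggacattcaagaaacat

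4933412E12Rik overlaps the 5' end of Rab3ip, an activator of Rab8, by 1013 bases on the other strand. It had 454, 448 and 433 in BHLHE40-Fl-labelled libraries with LPS, against 19.6, 29.2 and 31.9 in their controls, and 574, 632 and 683 in Lyz2Cre libraries with LPS, against 119, 111 and 114 in controls. Rab3ip changed by 2.26 ± 0.11 in BHLHE40-Fl-labelled and 2.07 ± 0.11 in Lyz2Cre libraries, so its change was smaller than the 4.03 of its neighbour in the first and nearer to the 2.44 in the second. A630072M18Rik, listed in RefSeq as Aptr, lies wholly within Rsbn1l on the other strand. It had 763, 641 and 728 with LPS against 73.4, 86.1 and 82.6 in controls of the BHLHE40-Fl label, and 1933, 1873 and 1846 with LPS against 124, 105 and 109 in controls of Lyz2Cre. Rsbn1l changed less, by 1.13 ± 0.07 in BHLHE40-Fl-labelled and 1.31 ± 0.07 in Lyz2Cre libraries.

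A pair of members run along the same strand as a coding neighbour. 6530402F18Rik overlaps Ntng2, a netrin-G gene, over 7899 bases, and their annotated starts are 1 base apart. It had 798, 718 and 688 in BHLHE40-Fl-labelled libraries with LPS, against 125, 141 and 118 in their controls, and 3245, 3243 and 3370.3 in Lyz2Cre libraries with LPS, against 411, 379 and 364 in controls. Ntng2 had 269 ± 65.2 with LPS against 27.2 ± 4.21 in controls of the BHLHE40-Fl label, and 893 ± 116 with LPS against 131 ± 20.8 in controls of Lyz2Cre, so both genes had the same order of the 4 groups. 2210406H18Rik, an unconfirmed transcript on chromosome 7, lies 108 bases from Igsf6 on the same strand and within Mettl9 on the other. It had 1035, 955 and 885 with LPS against 652, 413 and 476 in controls of the BHLHE40-Fl label, and 552, 531 and 499 with LPS against 220.2, 208 and 311 in controls of Lyz2Cre. The changes of Igsf6, an immunoglobulin superfamily receptor gene, were 0.86 ± 0.11 in BHLHE40-Fl-labelled and 0.94 ± 0.11 in Lyz2Cre libraries, beside 0.92 ± 0.15 in BHLHE40-Fl-labelled and 1.12 ± 0.15 in Lyz2Cre libraries for the transcript. For these pairs, reads of one gene counted for the other cannot be told apart either.

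G530011O06Rik lies within Mid1 on the other strand of the X chromosome. It had 2321, 1859.9 and 2025 in BHLHE40-Fl-labelled libraries with LPS, against 248, 170.5 and 213 in their controls, and 1428, 1601 and 1507 in Lyz2Cre libraries with LPS, against 33.9, 49.4 and 15.1 in controls. LPS libraries stood far above controls in both labels, and Lyz2Cre controls were the lowest group. Mid1 had 238 ± 31.8 with LPS against 36.1 ± 5.49 in controls of the BHLHE40-Fl label, and 144 ± 19.3 with LPS against 24.5 ± 8.17 in controls of Lyz2Cre. Sex does not differ between the libraries: Xist was at most 2.3 and each of 4 Y chromosome genes at least 669 in all 12. 2310043P16Rik, another unconfirmed transcript, lies at the 5' end of Lsm14a on the other strand. It had 414, 498 and 416 with LPS against 12.4, 14.2 and 21 in controls of the BHLHE40-Fl label, and 810.1, 854 and 944 with LPS against 51.6, 51.1 and 63.6 in controls of Lyz2Cre, while Lsm14a changed by 1.17 ± 0.07 in BHLHE40-Fl-labelled and 1.28 ± 0.07 in Lyz2Cre libraries. Gm12764, a noncoding gene on the same strand, overlaps all 3881 bases of 2310043P16Rik, so reads of this pair cannot be told apart by strand either. Gm12764 averaged 214 ± 18.8 with LPS and 2.03 ± 1.77 in controls of the BHLHE40-Fl label, and 424 ± 15.7 with LPS and 14.9 ± 5.65 in controls of Lyz2Cre, log2 changes of 6.40 ± 0.43 in BHLHE40-Fl-labelled and 4.81 ± 0.43 in Lyz2Cre libraries.

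**Figure D3:**
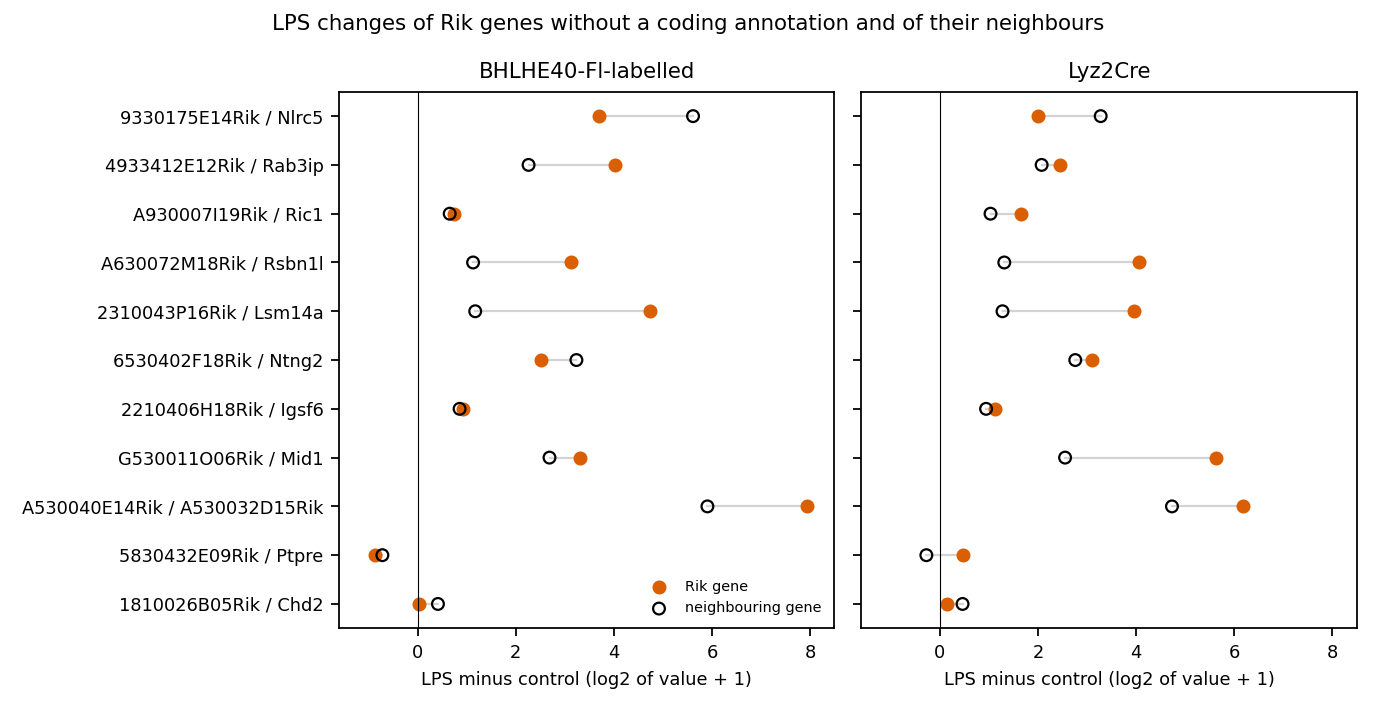
LPS minus control on the log2(value + 1) scale for 11 Rik genes without a coding annotation (filled) and 1 neighbouring gene of each (open), in BHLHE40-Fl-labelled (left) and Lyz2Cre (right) libraries. 9330175E14Rik changed less than Nlrc5 in both panels, A630072M18Rik changed more than Rsbn1l in both, and 2210406H18Rik lies close to Igsf6.

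Between the genotype labels, 59 of the 100 members were called in controls (21 higher and 38 lower in BHLHE40-Fl-labelled libraries) and 57 with LPS (16 higher, 41 lower; limma, adjusted p below 0.05). Of all genes tested 31.6% were called in controls (15% higher, 16.6% lower) and 37.4% with LPS (17.7% higher, 19.8% lower), and of the genes that reach the lowest member's level 48.9% in controls and 58% with LPS. The rule used these levels too. The members' median log2 difference was -0.15 in controls and -0.18 with LPS, beside 0.00 in controls and -0.02 with LPS over all genes tested. Over the genes that reach the lowest member's level it was -0.05 in controls and -0.07 with LPS. Of these, 1413 were called higher and 2406 lower in controls, and 1837 higher and 2690 lower with LPS. In both treatments 26 members were lower and 11 higher in BHLHE40-Fl-labelled libraries, beside 10.2% lower and 8.04% higher of all genes tested, and the comparisons in controls and with LPS share no library. With a difference of at least 1 required as well, 16 members were called in controls and 10 with LPS, beside 15.3% of all genes tested in controls and 15.5% with LPS. This split too depends on the scaling: with equal library totals it was 37 higher and 27 lower in controls and 39 higher and 24 lower with LPS, and the median of all genes moved to 0.17 in controls and 0.22 with LPS. No member was called in opposite directions by these scalings. The macrophage and mesothelial marker sums given above differ between the same groups, and their part in these differences was not tested.

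**Figure D4:**
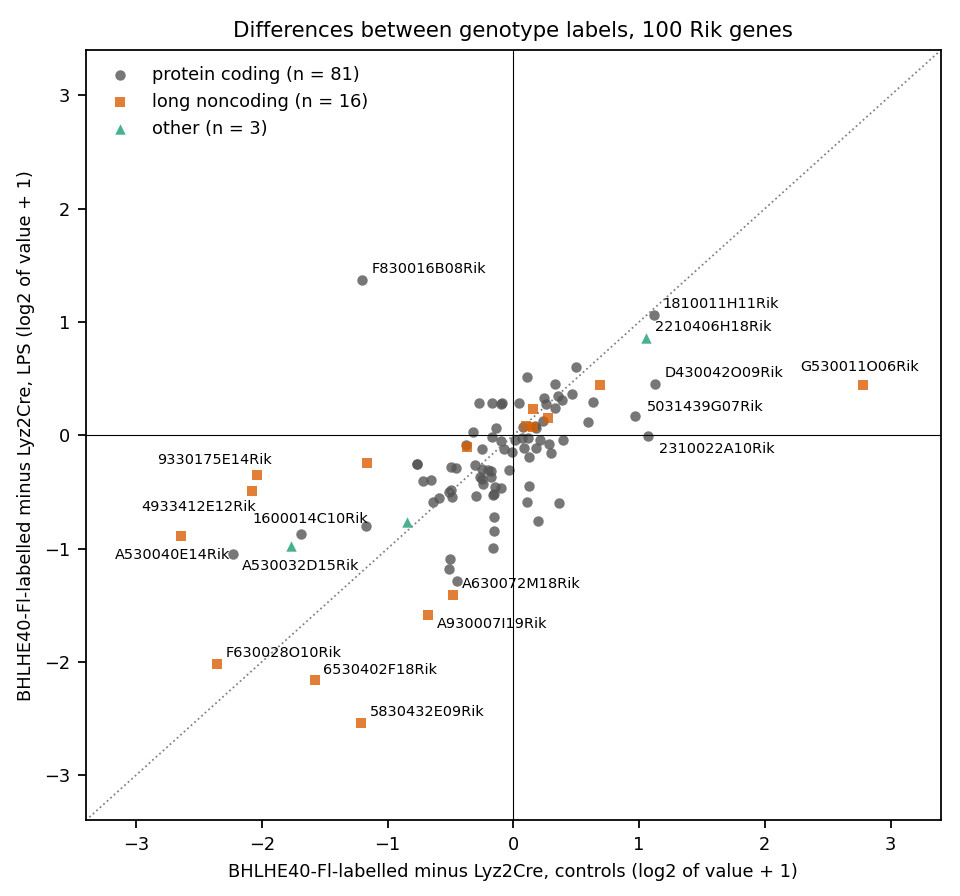
Difference between genotype labels, BHLHE40-Fl-labelled minus Lyz2Cre, of each of the 100 Rik genes with LPS (vertical axis) against controls (horizontal axis), on the log2(value + 1) scale; marker shape gives the annotated class and the dotted line marks equal differences. The noncoding 5830432E09Rik, F630028O10Rik and 6530402F18Rik stand lowest with LPS, and G530011O06Rik is furthest to the right.

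With LPS, the 5 members furthest below Lyz2Cre in BHLHE40-Fl-labelled libraries were noncoding. Of these, 5830432E09Rik, A930007I19Rik and F630028O10Rik each reached the limit in 1 Lyz2Cre group only. The choice of members therefore favoured low values of these in BHLHE40-Fl-labelled libraries, and nothing is read from their class. The log2 difference with LPS was -2.16 ± 0.09 for 6530402F18Rik (limma adjusted p = 4.41e-12) and for A630072M18Rik -1.41 ± 0.10 (limma adjusted p = 7.97e-09), with no overlap between the libraries given above. 5830432E09Rik differed by -1.21 ± 0.12 in controls and -2.54 ± 0.12 with LPS, and its host gene Ptpre on the other strand by -0.77 ± 0.07 in controls and -1.21 ± 0.07 with LPS. A930007I19Rik overlaps Ric1, which acts on Rab6 at the Golgi, and Pdcd1lg2, the gene of PD-L2, both on the other strand. It had 220.0, 178 and 189 in BHLHE40-Fl-labelled and 585, 584 and 594 in Lyz2Cre libraries with LPS, and 141, 80.5 and 136 in BHLHE40-Fl-labelled and 172, 186 and 201 in Lyz2Cre controls. Ric1 differed by -0.72 ± 0.07 in controls and -1.10 ± 0.07 with LPS.

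Coding members were lower as well. For Kct2 (9530068E07Rik) the log2 difference was -0.51 ± 0.06 (limma adjusted p = 2.43e-06) in controls and -0.50 ± 0.06 (limma adjusted p = 2.92e-06) with LPS. For Rab5if it was -0.59 ± 0.07 (limma adjusted p = 2.57e-06) in controls and -0.56 ± 0.07 (limma adjusted p = 4.99e-06) with LPS. For 1600014C10Rik the difference was -1.69 ± 0.09 (limma adjusted p = 4.05e-11) in controls and -0.87 ± 0.09 (limma adjusted p = 3.07e-07) with LPS. The endosome gene Rmc1 (3110002H16Rik) averaged 931 ± 78.2 in BHLHE40-Fl-labelled and 1315 ± 100 in Lyz2Cre controls, and 656 ± 12.7 in BHLHE40-Fl-labelled against 917 ± 25.5 in Lyz2Cre libraries with LPS, log2 differences of -0.50 ± 0.08 (limma adjusted p = 8.5e-05) in controls and -0.48 ± 0.08 (limma adjusted p = 0.000111) with LPS. With LPS A530032D15Rik differed by -1.05 ± 0.18 (limma adjusted p = 0.000181).

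Higher in BHLHE40-Fl-labelled libraries in both treatments were D430042O09Rik, Resf1 and 2210406H18Rik, among others. D430042O09Rik, whose RefSeq synonym is Kiaa0556, had 1158, 1153 and 1193 in BHLHE40-Fl-labelled and 509.6, 553 and 538 in Lyz2Cre controls, and 709, 779 and 675 in BHLHE40-Fl-labelled against 529, 527 and 521 in Lyz2Cre libraries with LPS. Its log2 difference was 1.13 ± 0.08 in controls (limma adjusted p = 1.95e-09) and 0.45 ± 0.08 with LPS (limma adjusted p = 0.000134), while Gtf3c1, which starts 108 bases away on the other strand, differed by 0.17 ± 0.07 in controls and -0.00 ± 0.07 with LPS. Resf1 was higher by 0.63 ± 0.09 (limma adjusted p = 1.32e-05) in controls and 0.30 ± 0.09 (limma adjusted p = 0.0107) with LPS. 2210406H18Rik was higher by 0.86 ± 0.15 with LPS (limma adjusted p = 0.000245), and Igsf6 beside it by 0.88 ± 0.11. The steeply lowered pair differed in this direction too, 6430548M08Rik by 0.49 ± 0.12 in controls (limma adjusted p = 0.00326) and Tmem273 by 1.12 ± 0.28. With LPS, where both are near their lowest values, the differences were 0.60 ± 0.12 for 6430548M08Rik and 1.06 ± 0.28 for Tmem273. Called with LPS and not in controls, 2810004N23Rik had 555, 558 and 537 in BHLHE40-Fl-labelled and 421, 344 and 390.4 in Lyz2Cre libraries, a difference of 0.52 ± 0.11 (limma adjusted p = 0.000993), and in controls 0.11 ± 0.11.

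The LPS change itself differed between the labels for 35 members (10 with a more positive and 25 with a more negative change in BHLHE40-Fl-labelled libraries; interaction, limma, adjusted p below 0.05; 15 and 20 with edgeR on recovered reads), beside 18.8% of all genes tested (9.52% higher, 9.31% lower) and 37.4% of the genes that reach the lowest member's level. Of the genes that reach that level, 1520 were called with a more positive and 1398 with a more negative change. This split of the members also depends on the scaling: with equal library totals it was 16 more positive and 18 more negative, and the median of all genes moved to 0.05. The changes of 7 members differed by at least 1 on the log2 scale as well, beside 7.4% of all genes tested. C9orf72 (3110043O21Rik), which is known for restraining inflammation in mouse macrophages, rose less with LPS in BHLHE40-Fl-labelled libraries. It had 3957, 3209 and 3123 with LPS against 1863, 2022 and 1786 in controls of that label, and 6577, 6912 and 6874 with LPS against 2132, 1937 and 2264 in controls of Lyz2Cre. Controls of the labels overlapped while LPS libraries did not, and the changes of 0.85 ± 0.09 in BHLHE40-Fl-labelled and 1.69 ± 0.09 in Lyz2Cre libraries differed by -0.83 ± 0.12 (limma adjusted p = 8.27e-05). B430306N03Rik, a TREM-like receptor gene (Treml6 in RefSeq), had 5434, 5575 and 5484 with LPS against 2671, 2639 and 2673 in controls of the BHLHE40-Fl label, and 7057, 7862 and 7633 with LPS against 2473, 2905 and 2027 in controls of Lyz2Cre. Its changes of 1.05 ± 0.09 in BHLHE40-Fl-labelled and 1.62 ± 0.09 in Lyz2Cre libraries differed by -0.57 ± 0.13 (limma adjusted p = 0.00489).

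Dennd11 had a genotype difference that was called in opposite directions in the treatments: BHLHE40-Fl-labelled libraries were higher in controls, with 0.37 ± 0.07 (limma adjusted p = 0.000544), and lower with LPS, with -0.60 ± 0.07 (limma adjusted p = 2.87e-06), an interaction of -0.96 ± 0.10 (limma adjusted p = 1.74e-06). E130309D02Rik differed by -0.28 ± 0.10 in controls and 0.28 ± 0.10 with LPS, an interaction of 0.56 ± 0.14 (limma adjusted p = 0.00724). Its difference in controls was not called without the filter on low values, under equal totals or quantile normalization, with the replicate block and in 6 of the 12 fits that left out 1 library, and its difference with LPS was not called in 3 of those 12. 2310022A10Rik, which starts 15 bases from the lysosomal gene Pld3 on the other strand, had 1015, 992 and 983 with LPS against 949.5, 1203 and 1142 in controls of the BHLHE40-Fl label, and 963, 938 and 1104 with LPS against 535, 573 and 456 in controls of Lyz2Cre. Only the Lyz2Cre controls stood apart, the interaction was -1.08 ± 0.14 (limma adjusted p = 2.89e-05), and that of Pld3 was -0.38 ± 0.11. D430042O09Rik changed with LPS by -0.70 ± 0.08 in BHLHE40-Fl-labelled and -0.02 ± 0.08 in Lyz2Cre libraries, an interaction of -0.68 ± 0.11 (limma adjusted p = 0.000187), and its BHLHE40-Fl-labelled controls were the highest group. The interactions of 5031439G07Rik (-0.80 ± 0.11; limma adjusted p = 4.73e-05) and 2510009E07Rik (-0.46 ± 0.10; limma adjusted p = 0.00229) were of fallen genes that were higher in BHLHE40-Fl-labelled than in Lyz2Cre controls. In contrast, 1600014C10Rik rose more in BHLHE40-Fl-labelled libraries, with 0.82 ± 0.12 (limma adjusted p = 9.26e-05). 2610507B11Rik, known as Kiaa0100, had 5103, 5912 and 5749 with LPS against 5455, 5153 and 5415 in controls of the BHLHE40-Fl label, and 5985, 5612 and 6168 with LPS against 6768, 7599 and 6516 in controls of Lyz2Cre. Its fall in Lyz2Cre libraries, -0.23 ± 0.07 (limma adjusted p = 0.0151), was lost without replicate 2 of either Lyz2Cre group, and its interaction of 0.29 ± 0.10 was not called (limma adjusted p = 0.0619) but was called under 7 alternatives, at 0.29 to 0.40: the filter at 5, equal totals, quantile normalization, edgeR, DESeq2 and 2 of the 12 fits that left out 1 library.

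Members that responded only at low control values also differed between the labels, and they are given as values. 9530082P21Rik, a noncoding gene that overlaps Kremen2 and Flywch1 on the other strand, had 420.1, 269.9 and 338 with LPS against 21.1, 35.5 and 31.9 in controls of the BHLHE40-Fl label, and 365, 425 and 411 with LPS against 60.8, 60.8 and 77 in controls of Lyz2Cre. Its LPS libraries overlapped between the labels, whereas its controls did not. For 4933412E12Rik, 9330175E14Rik, A530032D15Rik and A530040E14Rik, too, the BHLHE40-Fl-labelled controls lay below the Lyz2Cre controls. The opposite held for G530011O06Rik, whose controls were 6.42-fold higher in BHLHE40-Fl-labelled than in Lyz2Cre libraries.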

How the data were processed

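RNA-seq was run on 12 libraries in 4 groups of 3, from total RNA. The deposited values per gene are a signal, scaled by the authors by a method that no source used here states; the submitters' processing notes name mm10, STAR, Cufflinks and Cuffdiff without versions or roles, and the counter, annotation and strand setting are not stated. Dividing each library's values by what 1 read is worth (0.725 to 1.56) gave whole reads for 100% of the values within 0.06, 20489417 to 29354869 reads per library. The deposited unit is therefore reads over a factor per library, and the scaling sets the balance of higher and lower genes.

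Genes at 1 or more in at least 3 libraries (20419) were tested with limma 3.58.1 in R 4.3.3 on log2(value + 1), with trend, all 12 libraries in 1 fit and Benjamini-Hochberg adjustment over all genes; a gene was called at an adjusted p below 0.05. Errors beside log2 changes are SE from the fit, and those beside means are SD (n = 3). The fit understates changes of low genes. The comparisons were LPS against control in each genotype label, BHLHE40-Fl-labelled against Lyz2Cre in each treatment, and their interaction. edgeR 4.0.16 and DESeq2 1.42.0 on the recovered reads were alternatives; edgeR called 10131 and 9799 genes with LPS in BHLHE40-Fl-labelled and Lyz2Cre libraries, 6823 and 6999 between labels in controls and with LPS, and 3765 interactions. Scaling, filter, pseudocount, samples, replicate block and choice of members were varied as well.

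The rule for values in every library took the 10 highest members, up to 5 called members per direction and comparison whose groups did not overlap, those around the limit and those with a printed promoter; all 100 are named. The members and lists were chosen with earlier results of these data known. Annotation came from GENCODE M21 (100 members) and RefSeq GRCm38.p6 (96 members), and windows from RefSeq. Intervals cover counting error only.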

Additional observations from a re-analysis of the deposited data

Results flagged for a closer look

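For 20 of the members with values in every library, the LPS change differed between the genotype labels by a test of that difference (limma interaction, log2, BHLHE40-Fl-labelled minus Lyz2Cre). For 11 of the 20 not all 4 group means reach the lowest member's level, so the choice of members partly fixes their difference.

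Lower changes in BHLHE40-Fl-labelled libraries were those of 5031439G07Rik (-0.80), B430306N03Rik (-0.57), C9orf72 (3110043O21Rik, -0.83), 2510009E07Rik (-0.46), Aopep (2010111I01Rik, -0.96), 6530402F18Rik (-0.58), Dennd11 (E330009J07Rik, -0.96), G530011O06Rik (-2.33), A630072M18Rik (-0.93), D430042O09Rik (-0.68), 2310022A10Rik (-1.08), A930007I19Rik (-0.91) and 5830432E09Rik (-1.33). Higher changes were those of 1600014C10Rik (0.82), A530032D15Rik (1.18), 2310043P16Rik (0.79), A530040E14Rik (1.75), 4933412E12Rik (1.58), 9330175E14Rik (1.69) and 9530082P21Rik (0.92). Over the 9 members whose 4 group means all reach that level, the limma adjusted p ran from 1.74e-06 for Dennd11 to 0.00489 for B430306N03Rik.

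The 2 reads of A530040E14Rik in BHLHE40-Fl-labelled controls make its value depend on the pseudocount: with 5 in place of 1 it was 0.40 and not called, and without replicate 1 of the BHLHE40-Fl-labelled libraries with LPS it was 1.56 and not called. The value of 9530082P21Rik was not called in 6 of the 12 fits that left out 1 library, with changes of 0.70 to 0.94 in those 6. That of 2310043P16Rik was not called with a pseudocount of 5. It was also lost without replicate 2 or 3 of the BHLHE40-Fl-labelled libraries with LPS, and without replicate 1 or 2 of their controls. The same held without replicate 1 or 2 of the Lyz2Cre libraries with LPS, and without replicate 3 of the Lyz2Cre controls.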

How the results depend on the processing

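Under the alternatives, 98 pairs of gene and comparison were followed, and none of their values changed sign with a call. Of their 2234 values, 2190 kept direction and side of the threshold, 27 gained and 17 lost the call, in 16 pairs. Other printed changes are outside these pairs, among them those of Aopep, Vps35l, E130309D02Rik and Dele1, whose losses are given above. Also outside them, equal library totals turned the LPS call of 8 members in each label and removed that of 20 in BHLHE40-Fl-labelled and 15 in Lyz2Cre libraries. Calling only changes of at least 1 on the log2 scale left 38 and 42 members with LPS in BHLHE40-Fl-labelled and Lyz2Cre libraries, 16 and 10 between labels in controls and with LPS, and 7 interactions, to be read beside the shares of all genes given with these counts above. Leaving out 1 library gave 82 to 88 and 80 to 83 members with LPS in BHLHE40-Fl-labelled and Lyz2Cre libraries, 51 to 61 and 50 to 63 between labels in controls and with LPS, and 27 to 36 interactions. With quantile normalization the members called were 49 higher and 34 lower with LPS in BHLHE40-Fl-labelled and 51 and 29 in Lyz2Cre libraries, and 32 and 31 between labels in controls and 20 and 35 with LPS. Calls of 57 and 56 members with LPS in BHLHE40-Fl-labelled and Lyz2Cre libraries, 43 and 33 between labels in controls and with LPS, and 22 interactions held with 1 sign in every setting run. Under equal library totals or quantile normalization the genotype difference of B430306N03Rik with LPS was not called, and that of 4932438A13Rik was gained. The genotype differences with LPS of Tmem273 (1810011H11Rik) and 6430548M08Rik were lost when only the groups compared were fitted, and that of Tmem273 also with edgeR and DESeq2. The LPS change of 2610507B11Rik in Lyz2Cre libraries was lost without replicate 2 of either group, at -0.19 and -0.17. Same-numbered libraries did not deviate together over all genes tested (correlations -0.07 to 0.03). Counting error of low genes is part of these deviations, so whether the numbers pair the samples cannot be told. With the replicate block 87 and 83 members were called with LPS, 54 and 59 between labels and 31 interactions. The causes of these changes were not tested. At 1 read a value is 0.725 to 1.56, which limits the members near 0 in controls.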

Other observations

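Choosing the 100 Rik genes by the mean over all 12 libraries kept 94 of them, and choosing by the highest group mean per kilobase of exon kept 83. The members lie on 20 chromosomes. Within a chromosome, 4931406P16Rik (Garre1) and 2310043P16Rik stand 76181 bases apart on chromosome 7, and A930007I19Rik and 9930021J03Rik 191243 bases apart on chromosome 19; of the second pair, 9930021J03Rik had no LPS call and was higher in BHLHE40-Fl-labelled libraries, whereas A930007I19Rik was lower there.

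Between labels, of the 24 tested pairs of a member and a gene that starts within 1000 bases on the other strand, both were called in 8 in controls and in 8 with LPS, and 7 of each had the same direction. Here too such pairs were not counted over all genes, so nothing is read from these counts. Where the genes overlap their reads cannot be told apart, and the part of the neighbour in the member's value was not tested. The mitochondrial share of reads was 1.52% ± 0.662 in BHLHE40-Fl-labelled libraries with LPS and 1.36% ± 0.233 in their controls, and 0.562% ± 0.0655 with LPS and 1.13% ± 0.214 in controls of Lyz2Cre (SD, n = 3 each).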
